A study of Homo sapiens with 12 samples.

Results

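The respiratory chain of mitochondria is built from subunits that 2 genomes encode, and its genes were followed here through knockdown of NONO and knockdown of PKM2 in MDA-MB-231 cells. Members were taken by gene name: NDUFA, NDUFB, NDUFC, NDUFS and NDUFV genes for complex I, SDHA to SDHD for complex II, UQCR genes and MT-CYB for complex III, COX4 to COX8 genes and MT-CO genes for complex IV, and ATP5 and MT-ATP genes for complex V. Names of pseudogenes were left out. The rule found 105 members among the 60558 genes shared by both tables. Of these, 92 lie in the nuclear genome and 13 in the mitochondrial DNA. By complex, the nuclear and mitochondrial members number 40 and 7 for complex I, 4 and 0 for complex II, 9 and 1 for complex III, 19 and 3 for complex IV, and 20 and 2 for complex V. NDUFA4 and NDUFA4L2 were counted with complex IV, where the NDUFA4 protein resides. The nuclear members comprise 85 genes counted as subunit genes, 3 antisense or divergent RNAs, 2 readthrough loci and 2 retrogenes. The 85 include the inhibitor ATP5IF1 and the assembly factor COX7A2L, which the name rule takes in.

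Complexes I and II pass electrons from NADH and succinate to ubiquinone, complex III passes them to cytochrome c, and complex IV passes them to oxygen. Complexes I, III and IV pump protons across the inner membrane, and complex V, the ATP synthase, uses the gradient to make ATP. The mitochondrial DNA is transcribed from both strands as long precursors that are cut at the tRNAs. Subunits of 4 of the complexes must be supplied from both genomes, whereas complex II is nuclear throughout. PKM2, an isoform of pyruvate kinase encoded by the PKM gene, acts at the end of glycolysis, and NONO is an RNA- and DNA-binding protein of nuclear paraspeckles.

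MDA-MB-231 is an established line of triple-negative breast cancer cells. Each gene was knocked down by siRNA, and each knockdown (KD) was deposited with its own negative control (NC), whose genotype is labelled WT, as 3 libraries per group and 12 libraries in all. The labels do not say whether replicates are separate cultures, so P values measure the spread between these libraries. Poly(A)-selected RNA was sequenced in pairs of 150 bases, and the libraries held 19861714 to 28455191 estimated counts. NONO fell 5.95-fold in its own knockdown (373 ± 16.7 against 62.7 ± 1.4 CPM, counts scaled to library size; SD, n = 3) and PKM fell 10-fold in the PKM2 knockdown (2270 ± 56.8 against 227 ± 8.3 CPM); the counts are per gene, so isoforms of PKM are not told apart. In NC libraries, VIM, CD44, EGFR and AXL, which mark this mesenchymal line, averaged 74.8 to 3787 TPM (counts scaled to gene length and to the library). Of the receptors that triple-negative cells lack, ESR1 and PGR were at most at 0.157 TPM, and ERBB2 was at 30.8 and 26.7 TPM in the NC groups. Of the luminal markers, CDH1 was listed at 0, GATA3 and EPCAM were at 2.94 to 3.97 TPM, and KRT19 was at 52.2 and 52.6 TPM; KRT19 fell 2.32-fold and ERBB2 1.82-fold with PKM2, and their part in the results was not tested. The leukocyte, fibroblast and endothelial markers PTPRC, DCN, PDGFRB and PECAM1 were at most at 1.86 TPM in NC. In the PKM2 experiment the third KD library stands apart for nuclear members: 76 of the 81 tested (93.8%) were higher there than in both other KD libraries, against 39.1% of all genes tested. Nuclear members are short, and other genes of like length were not counted, so this may not be particular to them. The main counts are given with and without it.

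The sequences shown first are those that the results return to. Nuclear respiratory genes are known targets of NRF1 and of the ETS factor GABP, and the RefSeq promoter table (GRCh38.p14, 250 bases before to 50 after each start) held 74 of the 92 nuclear members. The NRF1 letters, GCGCA and GCGC with any 1 base between them, were found on either strand in 17 of the 70 promoters of subunit genes (24.3%), against 6.28% of all 27305 promoters. CCGGAAG (ETS) was found in 28.6% against 10.7%, and AAGATGGCG (YY1) in 11.4% against 1.85%; matches of different motifs may overlap. These are matches of letters and not binding sites. The promoters below belong to UQCR11 and COX4I1, which changed in opposite directions in the knockdowns, and to NDUFA8 and SDHB, which rose in both. The PKM2 calls of UQCR11 and COX4I1 and the NONO calls of NDUFA8 and SDHB did not hold in all refits (described below). Capitals mark NRF1, ETS and YY1 letters on either strand, and the start lies after base 250.
UQCR11, chr19:1605413-1605712, minus strand: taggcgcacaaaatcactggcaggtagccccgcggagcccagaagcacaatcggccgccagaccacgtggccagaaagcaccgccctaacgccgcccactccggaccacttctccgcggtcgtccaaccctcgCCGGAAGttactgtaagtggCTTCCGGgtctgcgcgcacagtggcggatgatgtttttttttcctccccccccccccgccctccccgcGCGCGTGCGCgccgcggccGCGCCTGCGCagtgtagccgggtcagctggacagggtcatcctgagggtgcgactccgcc
COX4I1, chr16:85799445-85799744, plus strand: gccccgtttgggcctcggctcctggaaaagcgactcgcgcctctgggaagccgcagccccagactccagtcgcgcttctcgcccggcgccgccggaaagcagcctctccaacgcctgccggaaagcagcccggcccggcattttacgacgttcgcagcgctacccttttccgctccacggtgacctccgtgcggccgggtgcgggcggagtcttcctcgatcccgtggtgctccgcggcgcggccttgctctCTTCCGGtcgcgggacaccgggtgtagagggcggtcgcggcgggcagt
NDUFA8, chr9:122159730-122160029, minus strand: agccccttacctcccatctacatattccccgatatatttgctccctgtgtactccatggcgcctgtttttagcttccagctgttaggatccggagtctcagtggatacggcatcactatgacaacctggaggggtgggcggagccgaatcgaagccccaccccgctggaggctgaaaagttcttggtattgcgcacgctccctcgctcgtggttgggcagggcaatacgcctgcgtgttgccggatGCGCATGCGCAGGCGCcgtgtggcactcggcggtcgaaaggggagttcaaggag
SDHB, chr1:17053983-17054282, minus strand: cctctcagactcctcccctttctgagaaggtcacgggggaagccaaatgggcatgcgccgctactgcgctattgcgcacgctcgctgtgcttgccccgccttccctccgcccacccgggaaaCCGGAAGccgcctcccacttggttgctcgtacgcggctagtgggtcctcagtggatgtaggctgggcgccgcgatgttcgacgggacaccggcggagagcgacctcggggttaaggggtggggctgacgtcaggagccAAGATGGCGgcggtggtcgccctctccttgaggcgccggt
The UQCR11 promoter held 2 NRF1 and 2 ETS matches, the COX4I1 promoter 1 ETS match, the NDUFA8 promoter 2 NRF1 matches that overlap, and the SDHB promoter 1 ETS and 1 YY1 match. UQCR11, COX4I1 and SDHB thus hold ETS letters and NDUFA8 holds none in this window.

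In the mitochondrial DNA, MT-ATP8 and MT-ATP6 overlap by 46 bases, which is 22.2% of the MT-ATP8 transcript (GENCODE 29, GRCh38). The shared stretch is shown because reads that cover it may be counted for either gene. Capitals mark the first codon of MT-ATP6.
MT-ATP8 and MT-ATP6, chrM:8527-8572, plus strand: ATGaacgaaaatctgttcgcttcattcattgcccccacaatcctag
MT-ND4L and MT-ND4 share 7 bases in the same way (chrM:10760-10766).

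The design asks which transcripts change when either protein is lost. A member was called where the adjusted P of edgeR's quasi-likelihood test was below 0.05, and lowered or raised by the sign of KD over NC. After NONO knockdown, 27 of the 94 members tested passed (28.7%), 10 lowered and 17 raised, against 33.4% of all genes tested (17.2% lowered and 16.2% raised). After PKM2 knockdown, 56 of 94 passed (59.6%), 23 lowered and 33 raised, against 68.4% of all genes tested (34.7% lowered and 33.6% raised). Without the third KD library, 63 of 94 passed (67%), against 68.3%. Neither share stood above its background. The medians also lay near 0 for NONO (0.01 on the log2 scale, all genes -0.01), and for PKM2 they separated by genome: 0.11 for nuclear and -0.22 for mitochondrial members, against -0.01 for all genes. The nuclear median for PKM2 was 0.05 without the third KD library and 0.00 on log2(TPM + 1), where that of all genes was -0.09; the mitochondrial median was -0.25 and -0.34 in the same fits. Nuclear members are short, with a median length of 841 bases against 2876 for all genes tested, and the PKM2 changes leaned upward among short genes. With a length trend taken out, the nuclear median was 0.07 and the mitochondrial median -0.30, and with a GC and length trend taken out they were 0.05 and -0.39. The middle 50% of members spanned -0.14 to 0.22 after PKM2 knockdown, whereas that of all genes spanned -0.56 to 0.42. In bulk libraries, fewer cells with a transcript and less of it per cell cannot be told apart.

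Call counts by genome depended on the scale. For NONO, 9 nuclear members were lowered and 14 raised on counts, but 14 were lowered and 4 raised in limma on log2(TPM + 1). Without the second or the third NONO KD library, 7 and 9 nuclear members were raised on counts. For PKM2, 15 nuclear members were lowered and 31 raised on counts, and 22 and 28 without the third KD library. Mitochondrial members lowered numbered 8 and 11 in the same fits. Without that library all 13 mitochondrial members were called, against 68.3% of all genes. Of the 27 members called after NONO knockdown, 6 kept call and direction in all of 18 refits (other tools, scales, trend corrections and each library left out), and of the 56 called after PKM2 knockdown, 32 did. The NC and KD libraries did not overlap in CPM for 44 of 94 members in the NONO experiment (all genes, 46.1%) and for 58 of 94 in the PKM2 experiment (all genes, 71.9%).

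**Figure D1:**
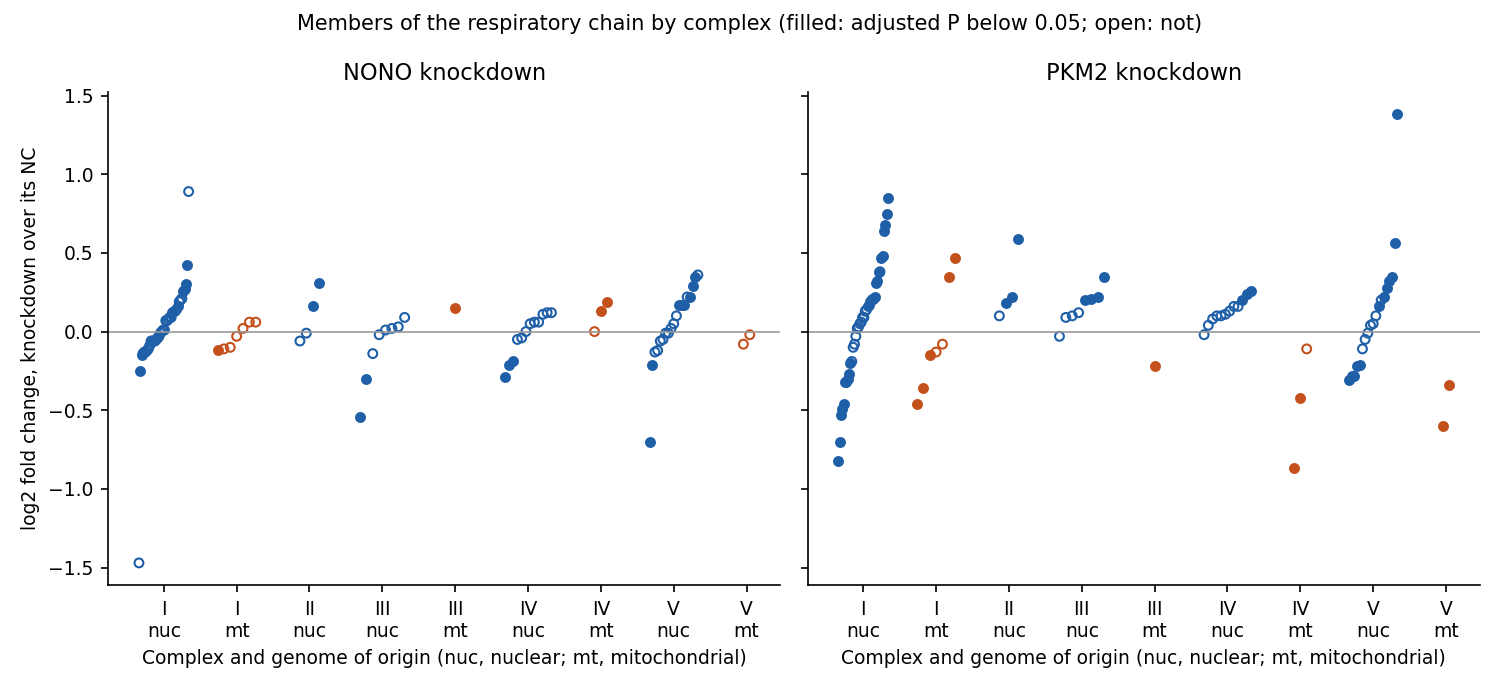
Log2 fold change of each tested member (y axis) by complex and genome of origin (x axis) for the NONO and the PKM2 knockdown; each point is a gene, blue for nuclear and orange for mitochondrial, filled where adjusted P was below 0.05. Mitochondrial members spread from -0.87 to 0.47 in the PKM2 panel, and from -0.12 to 0.19 in the NONO panel.

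The mitochondrial members were the most abundant transcripts of the chain. In the NC libraries of the NONO experiment their mean levels ran from 1949 TPM (MT-ND6) to 55978 TPM (MT-ATP8) with a median of 10695 TPM, whereas nuclear members had a median of 161 TPM and reached 884 TPM (COX8A). The MT-ATP8 value rests on a gene of 207 bases with 175 to 227 CPM, whereas MT-ATP6, of 681 bases, had 3030 to 3336 CPM. The MT-ATP8 count was thus not high, and per base of the gene it was below that of MT-ATP6. How the deposited TPM treated so short a gene is not known. The 13 genes held 4.11%, 4.53% and 4.51% of all counts in the NC and 4.56%, 4.4% and 4.36% in the KD libraries of NONO. In the PKM2 experiment they held 4.51%, 4.38% and 4.65% in NC and 3.47%, 3.39% and 3.55% in KD. The NONO groups overlapped, and the PKM2 groups did not, with means of 4.51 ± 0.136% and 3.47 ± 0.0814% (SD, n = 3). The share of the nuclear members was 0.853 ± 0.00997% and 0.848 ± 0.0573% in the same NC and KD libraries.

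**Figure D2:**
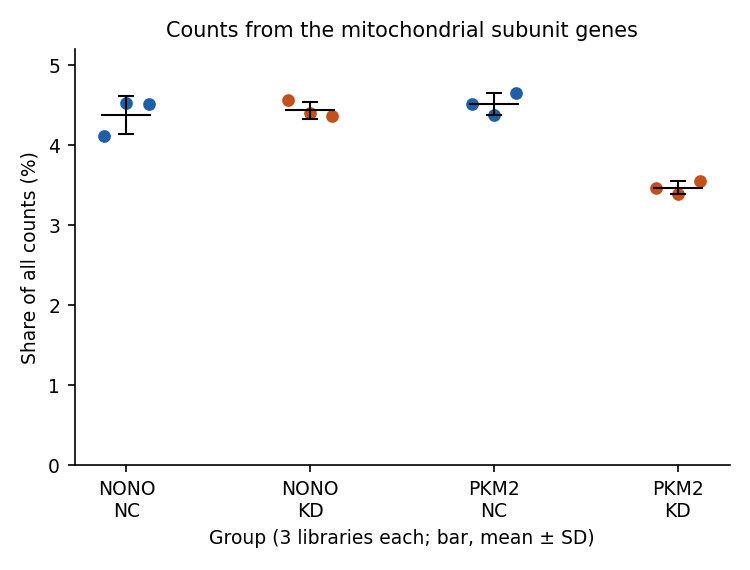
Share of all counts (y axis, %) from the 13 mitochondrial subunit genes in each library by group (x axis); bars give mean ± SD of 3 libraries. The 3 PKM2 KD libraries sit between 3.39% and 3.55%, below all other libraries, which sit between 4.11% and 4.65%.

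After PKM2 knockdown, 8 of the 13 mitochondrial members fell, 2 rose and 3 did not pass the test. The share called was 76.9%, against 68.4% of all genes tested, of which 34.7% were lowered. The members that overlap, MT-ATP8 with MT-ATP6 and MT-ND4L with MT-ND4, were counted as separate genes and not as separate mRNAs. MT-CO1, the catalytic subunit of complex IV, showed the largest fall: it had 9451, 9381 and 9796 CPM in NC and 5116, 5229 and 5274 CPM in KD, a log2 fold change of -0.87 (SE 0.04, adjusted P = 4.96e-09). The groups were far apart relative to their spread. MT-CO2, which carries the first copper centre of complex IV, fell from 5399, 5271 and 5816 to 3929, 4040 and 4327 CPM (-0.42, SE 0.05, adjusted P = 1.77e-05). MT-CO3, the third mitochondrial subunit of that complex, went from 5232, 5038 and 5424 to 4703, 4713 and 5173 CPM; its groups overlapped and it did not pass the test (-0.11, adjusted P = 0.0814). MT-ATP8 had 650, 544 and 666 CPM in NC and 438, 394 and 396 CPM in KD (-0.60, SE 0.07, adjusted P = 1.89e-05). MT-ATP6, the proton channel subunit of ATP synthase, fell by 0.34 on the log2 scale (SE 0.05, adjusted P = 4.80e-05), from 3398 to 3693 CPM in NC to 2741 to 2919 CPM in KD. Both ATP synthase genes thus fell with no overlap of groups. As they overlap by 46 bases and are not separate mRNAs, these are not independent falls. How their reads were split is not known, so the sizes cannot be set against each other.

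The 7 mitochondrial subunits of complex I, all of which lie in its membrane arm, did not move together. MT-ND4L (-0.46, adjusted P = 5.84e-05), MT-ND4 (-0.36, adjusted P = 2.65e-05) and MT-ND1 (-0.15, adjusted P = 0.0137) fell. MT-ND2 rose from 4007, 3733 and 4017 CPM to 5440, 5381 and 5456 CPM (0.47, SE 0.04, adjusted P = 1.54e-06). MT-ND3 rose from 937, 886 and 938 CPM to 1128, 1114 and 1277 CPM (0.35, SE 0.06, adjusted P = 1.81e-04). The KD libraries of both genes lay above every NC library. MT-ND5 (-0.08, adjusted P = 0.125) and MT-ND6 (-0.13, adjusted P = 0.0996) did not pass the test. MT-CYB, the haem-bearing core of complex III, fell by 0.22 on the log2 scale (SE 0.05, adjusted P = 0.00364), with 2337 to 2624 CPM in NC and 2086 to 2272 CPM in KD. The fall of MT-ND1 lost its call in 3 of the 6 fits with a library left out, and the other 9 calls held in all 18 refits.

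On the map of the mitochondrial DNA, the values from MT-CO1 to MT-CO3 and from MT-ND4L to MT-CYB were all below 0 after PKM2 knockdown, with MT-ND3 between these runs. MT-ND2 (chrM:4470-5511), which rose, lies next but for tRNAs to MT-CO1 (chrM:5904-7445), which fell most, and MT-ND3 (chrM:10059-10404), which rose, lies between MT-CO3 and MT-ND4L (chrM:10470-10766), which fell. MT-ND6 is the one subunit gene on the minus strand. The ribosomal RNA genes at the start of the map, which the name rule does not take in and which were looked at after the values were seen, went the other way: MT-RNR1 rose 2.66-fold, from 1155 ± 52.6 to 3069 ± 126 CPM (adjusted P = 8.36e-10), and MT-RNR2 rose 1.14-fold (adjusted P = 0.0011). The MT-RNR2 change was -0.02 once a trend with GC content and length was taken out. MT-RNR1 fell 1.41-fold after NONO knockdown (adjusted P = 4.22e-06). As RNA was poly(A)-selected, counts of these rRNAs and of the mitochondrial mRNAs are of captured RNA. Whether their level or their capture changed was not tested.

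**Figure D3:**
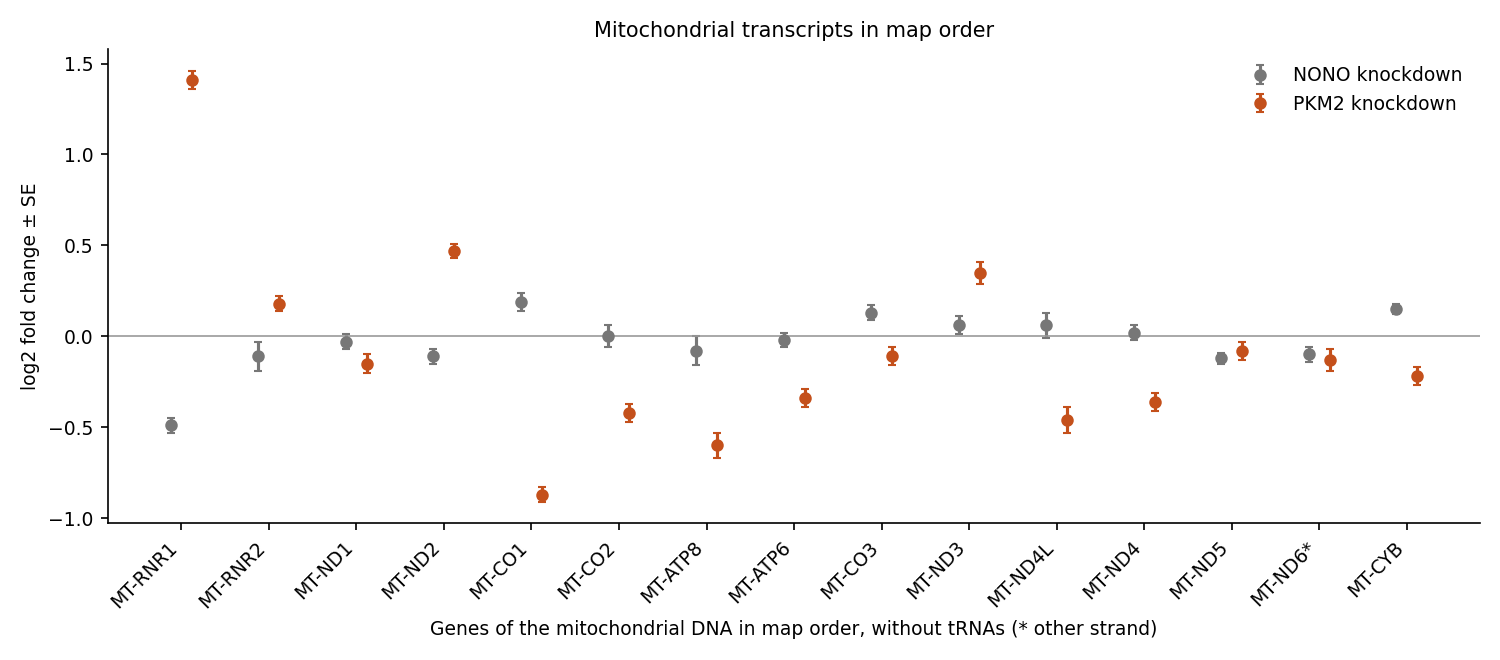
Log2 fold change ± SE (y axis) of the 13 mitochondrial subunit genes and 2 ribosomal RNAs in map order (x axis) for the NONO (grey) and PKM2 (orange) knockdown; points are fits over 6 libraries. MT-RNR1, MT-ND2 and MT-ND3 stand above 0 after PKM2 knockdown, and MT-CO1 stands lowest at -0.87.

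Nuclear copies of mitochondrial genes take up part of the reads. MTCO1P12, a copy of MT-CO1, held 9.76% to 10.1% as many counts as MT-CO1 in the PKM2 NC libraries and 14.3% to 14.4% in KD, but 0.94% to 1.03% in the NONO experiment. MTATP6P1 held 10.7% to 11.4% of the MT-ATP6 counts in the PKM2 experiment. When all such copies were summed with their gene, MT-CO1 still fell by 0.82 on the log2 scale after PKM2 knockdown.

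After NONO knockdown, the mitochondrial members stayed between -0.12 and 0.19 on the log2 scale, and 30.8% were called against 33.4% of all genes. MT-CO1 rose from 11017, 12730 and 12394 to 14042, 13738 and 13388 CPM (0.19, SE 0.05, adjusted P = 0.0112). MT-CYB rose from 2456, 2463 and 2476 to 2785, 2728 and 2718 CPM (0.15, SE 0.03, adjusted P = 0.00319), and MT-CO3 rose by 0.13 (adjusted P = 0.0218). MT-ND5 fell by 0.12 on the log2 scale (SE 0.03, adjusted P = 0.0174). The other 9 did not pass the test, and none of the 4 calls held in all 18 refits. Among these 9, MT-ND2 had 3636 to 3984 CPM in NC and 3449 to 3678 CPM in KD (-0.11, adjusted P = 0.0587), MT-ND6 -0.10, MT-ATP8 -0.08, MT-ND1 -0.03, MT-ATP6 -0.02, MT-CO2 -0.00, MT-ND4 0.02, MT-ND3 0.06 and MT-ND4L 0.06 on the log2 scale.

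Complex I carries the largest nuclear set, with 38 of 40 members tested. After PKM2 knockdown 10 were lowered, 14 raised and 14 did not pass the test (14 lowered and 13 raised without the third KD library). The share called was 63.2%, against 68.4% of all genes. NDUFA8, an accessory subunit of the intermembrane-space side, rose from 45, 45.4 and 46 to 72.1, 74.9 and 81.8 CPM (0.75, adjusted P = 4.51e-07). NDUFS4, an accessory subunit of the NADH-oxidising arm, rose by 0.68 (adjusted P = 4.22e-06), from 40.9 to 42 CPM to 61.5 to 73.4 CPM. Both lay above their NC libraries without overlap.

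NDUFC1, a small membrane-arm subunit, fell from 20.1, 19.7 and 19.8 to 9.57, 11.4 and 12.8 CPM (-0.82, SE 0.10, adjusted P = 1.84e-05). NDUFB3, of the same arm, fell from 53.5, 48.7 and 47.5 to 28.8, 29.6 and 34.1 CPM (-0.70, adjusted P = 7.39e-06). NDUFV1, which holds the flavin that accepts electrons from NADH, fell by 0.32 on the log2 scale (adjusted P = 3.64e-04; the call was lost with a GC and length trend taken out), and NDUFS1, the iron-sulphur subunit beside it, had 148 to 150 CPM in NC and 149 to 164 CPM in KD (0.09, adjusted P = 0.155). Subunits of one complex thus passed the test in both directions.

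After NONO knockdown, 8 of the 38 passed, 2 lowered and 6 raised (21.1% called against 33.4% of all genes). NDUFA1, an accessory subunit encoded on the X chromosome, rose from 15.9, 18.5 and 18.5 to 21.9, 22.3 and 21.2 CPM (0.30, adjusted P = 0.0163), and NDUFB5, of the membrane arm, rose from 54.9, 56.5 and 55.3 to 63.8, 66.1 and 70.9 CPM (0.27, adjusted P = 0.00298). NDUFS1 (-0.04, adjusted P = 0.548) and NDUFV1 (0.09, adjusted P = 0.106) did not pass. The calls of NDUFA1 and NDUFB5 were lost on log2(TPM + 1) without a filter.

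In complex II, which links the chain to the citric acid cycle, all 4 members were tested. SDHB, the iron-sulphur subunit, had 72.9, 72 and 65 CPM in NC and 97.9, 101 and 117 CPM in KD of PKM2, and rose by 0.59 (SE 0.07, adjusted P = 2.00e-05). The membrane anchors SDHD (0.22, adjusted P = 0.00227) and SDHC (0.18, adjusted P = 0.0108) also rose, and SDHA, the flavoprotein that oxidises succinate, had 232 to 240 CPM in NC and 247 to 268 CPM in KD (0.10, adjusted P = 0.0923). Summed over the complex, the level went from 553 ± 5.02 to 619 ± 9.82 TPM (SD, n = 3) without overlap.

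After NONO knockdown, SDHC rose from at most 117 CPM in NC to 140, 142 and 145 CPM in KD (0.31, SE 0.04, adjusted P = 2.38e-04). Its call was lost on the TPM scale, and its gene length differs between the tables, so its TPM cannot be set side by side. SDHB rose by 0.16 (adjusted P = 0.0302), a call lost in 11 refits. SDHD (-0.06, adjusted P = 0.273) and SDHA (-0.01, adjusted P = 0.848) did not pass.

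In complex III, the NONO and PKM2 knockdowns gave opposite directions for 2 of the 8 nuclear members tested. UQCR11, a small accessory subunit (GRCh38, chr19:1597172-1605490), had 78.5, 78.4 and 79.6 CPM in NC and 53.8, 54.3 and 54.5 CPM in KD of NONO, a fall of -0.54 on the log2 scale (SE 0.05, adjusted P = 7.65e-06). It had 104, 110 and 106 CPM in NC and 111, 120 and 137 CPM in KD of PKM2 and rose by 0.20 (adjusted P = 0.0223), a call lost on the TPM scale, with a length trend taken out, and without the first or the third NC library. UQCRFS1, the Rieske iron-sulphur protein (GRCh38, chr19:29205321-29213541), fell from 109, 97 and 98.1 to 82.2, 84 and 81.1 CPM with NONO (-0.30, adjusted P = 0.00145) and rose from 98.2, 90.8 and 97 to 119, 114 and 131 CPM with PKM2 (0.35, adjusted P = 3.22e-04). Both calls of UQCRFS1 held in all 18 refits.

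UQCRC2, a core protein, had 139 to 145 and 149 to 153 CPM with NONO (0.09, adjusted P = 0.122) and rose by 0.22 with PKM2 (adjusted P = 0.0023). UQCRB, which contacts ubiquinone, was at -0.02 (adjusted P = 0.805) with NONO and rose by 0.21 with PKM2 (adjusted P = 0.0128), but its PKM2 value was -0.03 on the TPM scale. The core protein UQCRC1 did not pass in either (0.03 and 0.10), and UQCR10 was lowest with PKM2 at -0.03 (adjusted P = 0.752).

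In complex IV, 12 of 19 nuclear members were tested. The share called was 25% with NONO, against 33.4% of all genes, and 25% with PKM2, against 68.4%. After NONO knockdown 3 fell and none rose (edgeR; 1 rose at an unadjusted P below 0.05, 0 by DESeq2): COX4I1, the regulatory subunit, from 157, 162 and 161 to 133, 131 and 130 CPM (-0.29, SE 0.04, adjusted P = 2.91e-04), COX7A2L, a supercomplex assembly factor, from 64.9, 64.6 and 65.7 to 53.9, 56.8 and 58.5 CPM (-0.21, adjusted P = 0.00874), and COX7B, from 46.9, 51.3 and 51.3 to 44.7, 45.7 and 40.5 CPM (-0.19, adjusted P = 0.0398). The COX4I1 call held in all 18 refits, the COX7A2L call was lost on the TPM scale, and the COX7B call was lost in 12 refits. After PKM2 knockdown none fell (edgeR; 0 at an unadjusted P below 0.05 and 0 by DESeq2) and 3 rose: NDUFA4 from 54.5, 53.4 and 53 to 61, 64.1 and 68 CPM (0.26, adjusted P = 0.00144), COX4I1 from 182, 176 and 184 to 202, 202 and 235 CPM (0.24, adjusted P = 0.00489), and COX7A2 from 81.6, 80.2 and 76.3 to 87.8, 88.5 and 97.9 CPM (0.20, adjusted P = 0.00825). The COX4I1 rise lost its call on the TPM scale and with a length trend taken out, and COX7A2 was at -0.03 with a GC and length trend taken out. COX5A, which binds near the regulatory site, did not pass in either (0.05 and 0.16), and COX7C was lowest with PKM2 at -0.02 (adjusted P = 0.782).

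Within complex IV the genomes therefore parted after PKM2 knockdown: the summed level of the 3 mitochondrial subunits went from 40060 ± 1262 to 28000 ± 110 TPM, and that of the nuclear members from 4749 ± 70.3 to 4777 ± 187 TPM (SD, n = 3). In complex V both sums fell without overlap of groups. The mitochondrial pair went from 47967 ± 720 to 34149 ± 3851 TPM (log2 ratio -0.49) and the nuclear members from 6689 ± 24.7 to 6256 ± 272 TPM (-0.10). Most of the pair's sum was MT-ATP8, which went from 36973 ± 544 to 26078 ± 3671 TPM, and MT-ATP6 went from 10994 ± 291 to 8072 ± 220 TPM. In complex I the mitochondrial sum went from 48269 ± 566 to 44904 ± 2107 TPM (-0.10) and the nuclear sum from 6924 ± 45.2 to 6889 ± 289 TPM (-0.01). On log2(TPM + 1) the median change of all genes with PKM2 was -0.09. The falls of the nuclear sum of complex V and the mitochondrial sum of complex I lay near it. In the NONO experiment, the sums of nuclear members went from 18251 ± 223 to 17383 ± 169 TPM (-0.07) and those of mitochondrial members from 166345 ± 3971 to 157084 ± 4001 TPM (-0.08). The median change of all genes there was -0.05 on log2(TPM + 1).

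In complex V, 19 of 20 nuclear members were tested. ATP5F1D, the delta subunit of the central stalk (GRCh38, chr19:1241746-1244826), showed the largest fall of any called nuclear member with NONO: 116, 108 and 99.5 CPM in NC and 75.2, 65.4 and 58.9 CPM in KD (-0.70, SE 0.08, adjusted P = 9.57e-05). It had 95.5, 98.3 and 96.6 CPM in NC and 101, 103 and 129 CPM in KD of PKM2 (0.20, adjusted P = 0.051), where the third KD library stood highest. The catalytic ring subunits differed: ATP5F1A, the alpha subunit, fell in both (NONO -0.21, adjusted P = 0.00456; PKM2 -0.28, adjusted P = 3.64e-04), and ATP5F1B, the beta subunit, passed in neither (-0.06 and 0.10). ATP5F1A had 333 to 366 and 295 to 303 CPM with NONO, and 370 to 381 and 295 to 328 CPM with PKM2.

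Of the members that join the ring to the membrane, ATP5PB, the peripheral stalk subunit b, rose in both, from 125, 111 and 110 to 139, 143 and 139 CPM with NONO (0.29, adjusted P = 0.00198) and from 135, 133 and 133 to 168, 163 and 180 CPM with PKM2 (0.35, adjusted P = 6.11e-05). ATP5MG, subunit g, rose from 122, 118 and 121 to 165, 165 and 203 CPM with PKM2 (0.56, adjusted P = 3.45e-05) and by 0.17 with NONO (adjusted P = 0.0105). ATP5MD, a small membrane subunit that takes part in dimer formation, rose from 41.4, 34.3 and 38.1 to 46.6, 49.8 and 48.8 CPM with NONO (0.35, adjusted P = 0.00316) and fell from 71.1, 68.9 and 67.4 to 53.2, 55.9 and 61.9 CPM with PKM2 (-0.28, adjusted P = 0.00218). ATP5IF1, the inhibitor of the ATP hydrolysis reaction, rose by 0.17 with NONO (adjusted P = 0.0175) and fell by 0.22 on the log2 scale with PKM2 (adjusted P = 0.0161), where its groups overlapped. The calls of ATP5MD, ATP5IF1 and ATP5MG with NONO were lost on the TPM scale, and those of ATP5PB in both experiments were lost on log2(TPM + 1) without a filter. The ATP5IF1 call was also lost in 3 of the 6 fits with a library left out for NONO (without NC library 3 or KD library 1 or 2) and in 4 of 6 for PKM2 (without NC library 2 or 3 or KD library 1 or 2).

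**Figure D4:**
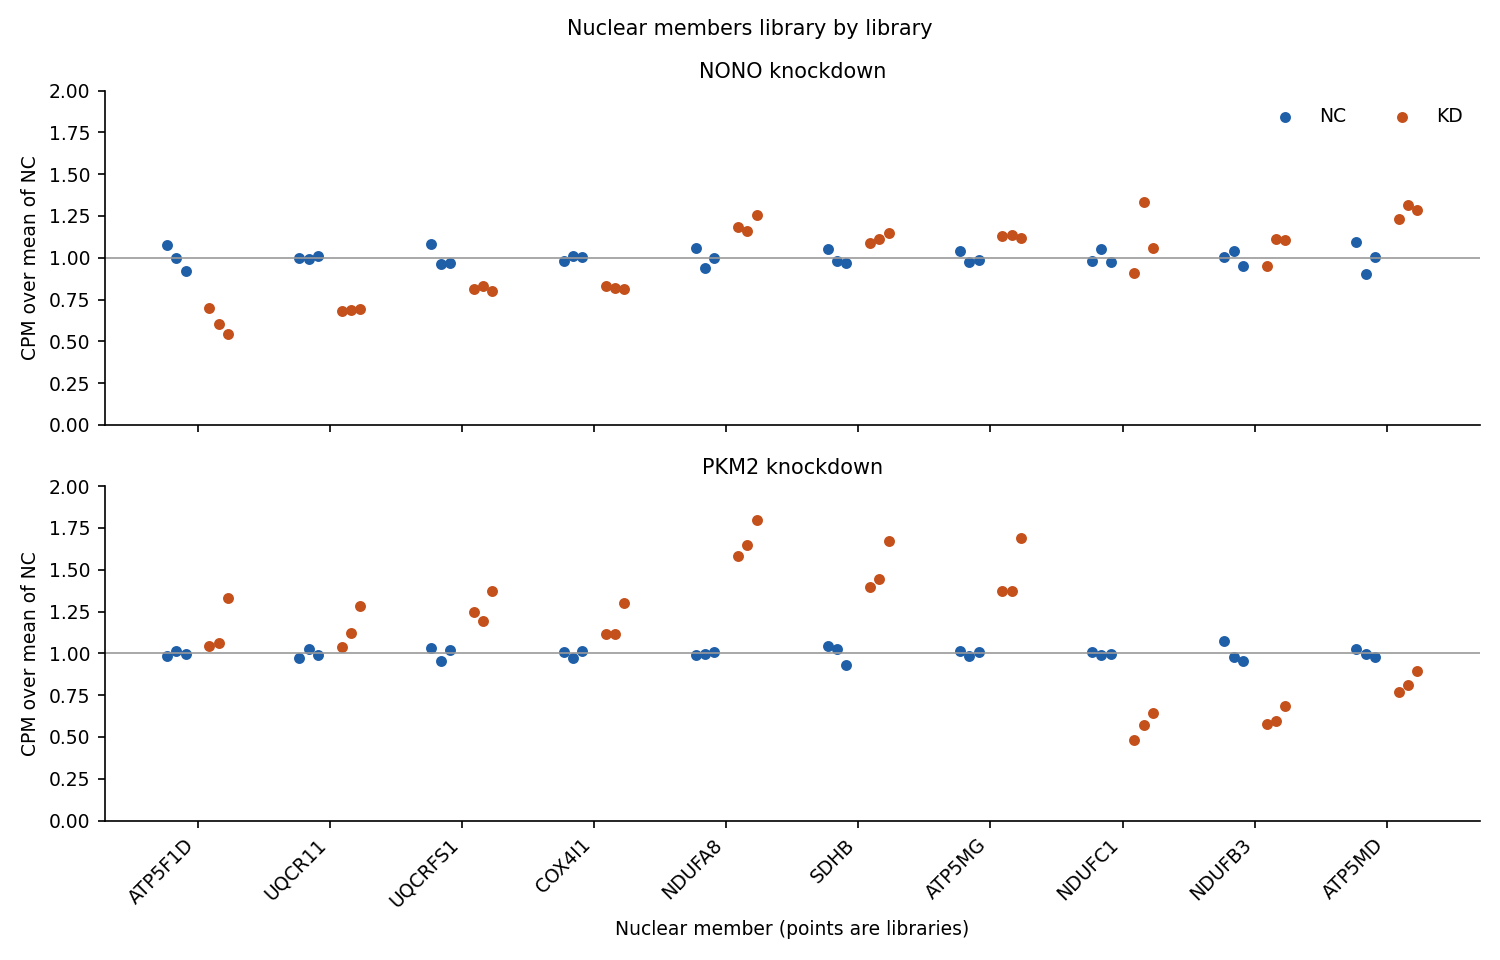
CPM of 10 nuclear members in each library over the mean of the NC libraries (y axis), for NC (blue) and KD (orange) in the NONO and PKM2 experiments; points are libraries. ATP5F1D, UQCR11, UQCRFS1 and COX4I1 lie below 1 in every NONO KD library and above 1 in every PKM2 KD library, and NDUFA8 lies above 1 in the KD libraries of both.

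Several subunits exist as isoforms encoded by separate genes. The 3 genes of the c-ring, ATP5MC1, ATP5MC2 and ATP5MC3, encode one mature protein, and their NC levels were 332, 170 and 249 TPM in the NONO experiment. ATP5MC2 rose by 0.17 with NONO (adjusted P = 0.0117; lost on the TPM scale), ATP5MC1 fell from 88.3, 83.2 and 88.2 to 65.1, 67.5 and 76.9 CPM with PKM2 (-0.31, adjusted P = 0.00136), and ATP5MC3 was at -0.01 in both. The alternative isoforms COX4I2, COX6A2, COX6B2, COX7A1, COX7B2, COX8C and NDUFA4L2 were too low to be tested. COX4I2, COX6A2 and COX7B2 had 0 counts in all 12 libraries, and the others had at most 5 counts in any library. NDUFA4, at 25.6 and 42.5 TPM in the NC groups, was the lowest tested member of complex IV.

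Of the 11 untested members, 7 are these isoforms, and the others are the antisense RNAs NDUFB2-AS1 and NDUFV2-AS1 and the retrogenes UQCRHL and ATP5MGL, with at most 13 counts. The divergent RNA NDUFA6-DT had 15 to 20 counts in NC and 2 to 13 in KD of NONO, 0.903, 0.954 and 0.701 against 0.0997, 0.661 and 0.153 CPM, and did not pass the test (-1.47, SE 0.56, adjusted P = 0.0629). The readthrough locus ATP5MF-PTCD1 rose from 2.87, 1.79 and 3.42 to 9.28, 5.85 and 6.1 CPM with PKM2 (1.38, SE 0.24, adjusted P = 3.08e-04), and NDUFC2-KCTD14 rose by 0.64 (adjusted P = 0.0245), with overlapping groups. Readthrough loci share exons with their neighbours, so how their estimated counts were split is uncertain.

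At the cutoffs used by the study, a fold change above 2 at an unadjusted P below 0.05, 1 member passed after NONO knockdown (NDUFA6-DT, against 2.95% of all genes tested) and 1 after PKM2 knockdown (ATP5MF-PTCD1, against 20.8%). Neither is a subunit gene. On the counts tested by edgeR, no subunit gene of either genome changed more than 2-fold in either experiment. In TPM, NDUFC1 went from 59.6 ± 0.106 to 23.2 ± 3.02 and NDUFA7 from 58.8 ± 4.26 to 26.6 ± 9.14 with PKM2 (SD, n = 3), which is more than 2-fold lower.

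The knockdowns were also compared directly, by a test of the difference between their changes. It was called for 41 of 94 members (43.6%), against 53.1% of all genes tested: 10 of the 13 mitochondrial and 31 of the 81 nuclear members. Without the third PKM2 KD library it was called for 52, and the share of all genes in that fit was not counted. The mitochondrial differences ran from -1.08 for MT-CO1 (SE 0.07, adjusted P = 8.54e-10) to 0.57 for MT-ND2 (SE 0.06, adjusted P = 1.02e-06). Among nuclear subunits the largest were NDUFC1 at -0.96 (adjusted P = 1.78e-04), ATP5F1D at 0.88 (adjusted P = 2.08e-05), NDUFB3 at -0.79 (adjusted P = 1.60e-05) and UQCR11 at 0.73 (adjusted P = 2.70e-06), each as the PKM2 minus the NONO change. Members called in both experiments numbered 18 of 94 (19.1%), against 27.2% of all genes tested in both. Of these 18, 2 fell in both (ATP5F1A and NDUFB8), 9 rose in both (among them ATP5MG, ATP5PB, NDUFA8, SDHB and SDHC) and 7 went opposite ways. Opposite calls were common among all genes too: of 3956 called in both, 1443 fell in both, 1356 rose in both and 1157 went opposite ways. Without the third PKM2 KD library, 19 were called in both, 3 lowered, 8 raised and 8 opposite, and the share of all genes was not counted there.

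Of the 7, COX4I1, UQCR11 and UQCRFS1 fell with NONO and rose with PKM2, and ATP5IF1, ATP5MD, MT-CO1 and MT-CYB rose with NONO and fell with PKM2. The difference itself was called for each of them, for example 0.63 for UQCRFS1 (adjusted P = 8.81e-06), 0.51 for COX4I1 (adjusted P = 2.85e-05) and -0.64 for ATP5MD (adjusted P = 3.72e-05). For NDUFA8, which rose in both, the PKM2 change exceeded the NONO change by 0.47 (adjusted P = 2.56e-04). Its NONO change was 0.26, a call that did not hold in all refits. Taken gene by gene (genes do not replicate one another), the changes had a Pearson r of 0.09 over the 94 members and of 0.33 over 14525 genes. Each experiment has its own controls.

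Genes that serve the chain but are not its members by name were read from the same fits. Of 17 complex I assembly factors, 11 rose and 1 fell with PKM2 (70.6% called against 68.4% of all genes; raised genes make up 33.6% of all genes; median 0.34, all genes -0.01), led by TMEM126A (1.24, 21 ± 1.25 to 49.5 ± 1.92 CPM, adjusted P = 1.63e-08) and ECSIT (1.23, 41.8 ± 1.32 to 97.8 ± 6.69 CPM, adjusted P = 1.06e-08), and NDUFAF1 rose by 0.66. With NONO, 2 rose and 1 fell (17.6% called against 33.4%): NDUFAF8 fell from 39.8 ± 6.89 to 18.6 ± 6.55 CPM (-1.09, adjusted P = 0.00165), and ACAD9 (0.39) and NDUFAF6 (0.37) rose. Of 24 complex IV assembly factors, 11 rose and 1 fell with PKM2 (50% called against 68.4%; median 0.15), with COX10, which makes haem for complex IV, at 1.13 (31.2 ± 2.91 to 68.2 ± 5.39 CPM), COA6 at 1.03 and CMC1 at 0.78, and 6 rose and 1 fell with NONO (29.2% called against 33.4%; COX20 -0.51, SCO2 0.40, COA8 0.36).

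The smaller lists, of 4, 6 and 4 assembly factors for complexes II, III and V, were mixed. With PKM2, 75%, 50% and 50% of them were called, against 68.4% of all genes. With NONO, the shares were 0%, 50% and 75%, against 33.4% of all genes. For complex II factors, 2 rose (SDHAF2 0.89, SDHAF3 0.48) and 1 fell (SDHAF4 -0.92) with PKM2, and none of 4 passed with NONO (edgeR; 2 at an unadjusted P below 0.05, 0 by DESeq2). For complex III, UQCC1 rose in both (0.54 with NONO, 0.56 with PKM2), TTC19 fell (-0.53) and UQCC3 rose (0.21) with NONO, and BCS1L fell (-0.40) and LYRM7 rose (0.33) with PKM2. For complex V, FMC1 rose (0.69) and ATPAF2 (-0.50) and ATPAF1 (-0.42) fell with NONO, and TMEM70 (0.54) and FMC1 (0.35) rose with PKM2. Cytochrome c, CYCS, which carries electrons from complex III to IV, rose in both, from 109 ± 3.02 to 147 ± 4.76 CPM with NONO (0.43, adjusted P = 3.82e-05) and from 137 ± 5.53 to 217 ± 7.47 CPM with PKM2 (0.67, adjusted P = 2.57e-07). The complex III subunit CYC1 (0.45) and the acyl carrier NDUFAB1 (0.38) rose with PKM2, and HIGD2A fell with NONO (-0.17).

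Of 32 genes for expression of the mitochondrial DNA, 17 rose and 7 fell with PKM2 (75% called against 68.4% of all genes; median 0.21) and 5 rose and 2 fell with NONO (21.9% against 33.4%; median 0.03). Without the third PKM2 KD library, 15 rose and 7 fell (68.8%). TFAM, which packages the DNA and starts its transcription, fell from 128 ± 9.36 to 92.7 ± 3.7 CPM with NONO (-0.47, adjusted P = 1.18e-04) and rose from 132 ± 2.7 to 172 ± 1.24 CPM with PKM2 (0.38, adjusted P = 1.17e-05). LRPPRC, which stabilises mitochondrial mRNAs, rose from 262 ± 4.66 to 442 ± 10.3 CPM with PKM2 (0.75, adjusted P = 3.04e-08) and from 288 ± 21 to 358 ± 6.85 CPM with NONO (0.31, adjusted P = 8.68e-04). ELAC2, which cuts tRNAs out of the precursors at their 3′ ends, fell from 179 ± 2.68 to 106 ± 3.79 CPM (-0.75, adjusted P = 6.48e-08), and MTERF2 fell by 0.85 on the log2 scale (adjusted P = 6.19e-05). With NONO, PTCD3 rose (0.33) and PRORP fell (-0.32). Whether these moved the mitochondrial mRNAs was not tested.

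Of 15 nuclear regulators of respiratory genes, 14 were tested, and 5 rose and 5 fell with NONO (71.4% called against 33.4% of all genes) while 4 rose and 5 fell with PKM2 (64.3% against 68.4%). PPARGC1A, a coactivator of mitochondrial biogenesis, fell from 9.79 ± 1.43 to 5.94 ± 0.216 CPM with NONO (-0.72, adjusted P = 0.00179) and rose from 8 ± 0.404 to 17.2 ± 1.56 CPM with PKM2 (1.10, adjusted P = 1.17e-06). GABPA, the DNA-binding subunit of GABP, rose with NONO (0.45, adjusted P = 3.63e-04) and with PKM2 (0.62, adjusted P = 6.75e-06). GABPB2 rose with NONO (0.37). GABPB2 rose (1.08) and HCFC1 fell (-0.79) with PKM2. PPARGC1B fell in both (-0.31 with NONO, -0.53 with PKM2). NRF1 rose with NONO (0.25, adjusted P = 0.0365) and did not pass with PKM2 (0.13). YY1 fell with NONO (-0.14, adjusted P = 0.0298) and rose with PKM2 (0.53, adjusted P = 6.20e-07). The NONO calls of NRF1 and YY1 were lost in some fits with a library left out. With NONO, the PPARGC1A, GABPA and GABPB2 calls were lost in at least 1 fit on the TPM scale.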

How the data were processed

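RNA from MDA-MB-231 cells was poly(A)-selected (TruSeq) and sequenced in 12 libraries. The authors deposited, per gene and library, expected counts and TPM in 1 table for each knockdown. The submitters' processing notes name fastp, HISAT2, StringTie, RSEM, DESeq2, edgeR and limma and the build hg19, without roles or versions; strand-specific counting is not given in the sources used here. The tables' columns of the authors' own fold changes, P values and group means were not used. The deposited expected counts were rounded to whole numbers, filtered (filterByExpr), scaled by TMM and tested with edgeR 4.0.16 (quasi-likelihood, R 4.3.3) within each experiment. The test covered 14832 genes for NONO and 15524 for PKM2, with P values adjusted over all of them (Benjamini-Hochberg) and calls at an adjusted P of 0.05. The difference between knockdowns was tested in 1 fit of all 12 libraries over 15995 genes. Fold changes are log2 of KD over NC, with SE from the fit. CPM use TMM-scaled totals. The TPM the authors deposited are per length; they were compared within a table, summed, and tested as log2(TPM + 1) with limma 3.58.1 as an alternative. The lengths of 3 members differ between the tables.

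Members matched the name rule. Names ending in P and a number were left out (149 and 150 pseudogenes), except the mitochondrial names MT-ATP6 and MT-ATP8. Members and lists were chosen with earlier results of these data known. Genes named in the text are all mitochondrial members, up to 3 called nuclear members per complex and experiment with non-overlapping groups and the largest change, the highest and lowest per complex, fixed core subunits and isoforms, the 6 largest called differences, special loci, and up to 3 called genes per list; others were named after their values were seen. Coordinates are from GENCODE 29 (GRCh38), not from the files. On simulated counts with 200 genes changed 4-fold, edgeR recovered 200 among 14836 genes for NONO, with 12 false calls, and 200 among 15496 for PKM2, with 17; smaller changes were not simulated. A nuclear member is counted but not reported by name here.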

Additional observations from a re-analysis of the deposited data

Results flagged for a closer look

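The test of the difference between the knockdowns, PKM2 minus NONO on the log2 scale, was past the threshold for 41 members. The largest values were 1.84 for NDUFA6-DT, -1.08 for MT-CO1, 1.01 for ATP5MF-PTCD1, -0.96 for NDUFC1, 0.88 for ATP5F1D and -0.79 for NDUFB3. NDUFA6-DT rests on at most 20 counts in a library and lost its call in DESeq2 and in 7 of the 12 fits with a library left out. The ATP5MF-PTCD1 difference lost its call on the TPM scale and in 6 of those 12 fits.

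Among mitochondrial members, the difference was also called for MT-ND2 (0.57), MT-ND3 (0.27), MT-ND4L (-0.54), MT-ATP8 (-0.53), MT-CO2 (-0.43), MT-ND4 (-0.40), MT-CYB (-0.39), MT-ATP6 (-0.34) and MT-CO3 (-0.25). The experiments differ in depth and in their NC libraries as well as in the gene knocked down, and these cannot be told apart. Short members had unlike NC counts: MT-ATP8 averaged 208 CPM in the NONO and 620 CPM in the PKM2 experiment. For MT-ND4L the NC means were 382 and 958 CPM, and for MT-ND3 474 and 920 CPM. MT-CO1 went the other way, at 12047 and 9543 CPM. The difference was not refitted with nuclear copies summed.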

How the results depend on the processing

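Counts of called members after NONO knockdown were the least stable. On log2(TPM + 1), log2(TPM + 0.1) and log2(TPM + 1) without a filter, nuclear members raised numbered 4, 4 and 1 (14 on counts), mitochondrial members raised 1, 1 and 0 (3 on counts), and members past the study's cutoffs 0, 0 and 0 (1 on counts). With the first 2 of these, nuclear members lowered numbered 14 and 14 (9 on counts) and mitochondrial members lowered 4 and 4 (1 on counts); the latter numbered 2 with no low-count filter, 2 with a length trend and 2 with a GC and length trend taken out. With 1 library left out, nuclear members raised ranged from 7 (without KD library 2) to 21 (without NC library 1), mitochondrial members lowered from 0 to 4 and raised from 1 to 3, and members past the cutoffs from 0 to 2. The change in mitochondrial share was -0.08 as a share of summed TPM (0.02 as counts). After PKM2 knockdown, nuclear members raised numbered 20, 18 and 15 on the 3 TPM scales (31 on counts), and members past the cutoffs 2, 3 and 2, and 2 with a GC and length trend taken out (1 on counts). With 1 library left out, the PKM2 counts ran from 14 to 22 nuclear lowered, 24 to 41 nuclear raised and 7 to 11 mitochondrial lowered, and 35 to 52 members differed between knockdowns. Direction turned for NDUFB5 (-0.01) and UQCRB (-0.03) on all 3 TPM scales, and for COX7A2 (-0.03) and MT-RNR2 (-0.02) with a GC and length trend taken out. The cause of these changes was not tested.

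With the replicate number as a replicate block, 22 members were called for NONO, all among the 27, and 60 for PKM2, including the 56; with a length trend taken out and the replicate block, NONO nuclear members raised numbered 8. Deviations of libraries with the same number correlated between -0.098 and 0.0405, so the numbers were not taken as pairing the libraries. With 3 libraries a group, an exact permutation test of a single value cannot go below 0.1. NDUFA6-DT had at most 20 counts in any library. The counts of list genes and of members called in both experiments without the third PKM2 KD library were added after seeing the data; apart from the list of mitochondrial DNA expression (above), complex IV assembly (2 lowered, 11 raised), carriers (2 and 3) and regulators (5 and 5), the list counts did not move.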
